A study of Mus musculus with 6 samples.

Results

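The genes described here make cholesterol, control its synthesis and uptake, or export it. The list names 30 genes in pathway order: 8 of the mevalonate steps, 11 of the sterol steps, 7 of regulation and uptake, and 4 of efflux. A gene was taken where a probe set carried its symbol alone, and 28 of the 30 were measured, among 19937 genes in all. Acat2, an acetyl-CoA acetyltransferase of the first step, and Nr1h2, which encodes the liver X receptor beta, are not analysed here. RNA came from mammary epithelial organoids of FVB mice of the genotype ErbB3 DOX-KO, an inducible knockout of the neuregulin receptor gene Erbb3. All 6 cultures carried that genotype and were grown in growth factor-reduced Matrigel for 14 days. The 3 control cultures had no doxycycline (DOX) and the 3 DOX cultures had 5 µM DOX, which switches the knockout on. Glands were taken from female mice matched for age, with no age, driver of the knockout or cell type of its expression given in the labels. Without DOX-treated organoids of another genotype, an effect of the drug and an effect of Erbb3 loss cannot be told apart here. The series calls the cultures biological replicates. The labels do not say that each came from its own mouse, so the p values measure only the spread between these cultures, which may be technical.

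Cells build cholesterol from acetyl-CoA. The mevalonate steps give isoprenoid units, which Fdft1 joins into squalene, and the sterol steps close squalene into lanosterol and trim it to cholesterol; isoprenoids are also used to anchor proteins in membranes. The factor SREBP2, encoded by Srebf2, turns on most of these genes when membrane sterol is low, while oxysterols, made when sterol is plentiful, activate the liver X receptors (LXR), which turn on export genes such as Abca1 and the uptake inhibitor Mylip. In the mammary gland the pathway is known to be raised in secretory cells, which put cholesterol into milk fat globule membranes.

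SREBP2 binds sterol elements near gene starts, commonly beside CCAAT boxes bound by NF-Y and GC boxes bound by Sp1, so the promoters of genes that the results turn on are shown first. The sequences are RefSeq windows of the GRCm38.p6 assembly, a C57BL/6J reference and not the FVB genome. They were matched by symbol for 22 of the 28 measured genes, with the most upstream start taken where a gene had several. Each run below ends at the base before the start and is written 5′ to 3′ along the gene. Capitals mark CCAAT on either strand (ATTGG when read on the opposite strand) and, in Hmgcs1 alone, the sterol element core TCACNCCAC. The first 5 are synthesis genes, whose coordinates are, for Hmgcs1, chr13:119690101-119690350 (plus strand); for Mvk, chr5:114444019-114444268 (plus strand); for Mvd, chr8:122443423-122443672 (minus strand); for Idi1, chr13:8885356-8885605 (plus strand); and for Tm7sf2, chr19:6067851-6068100 (minus strand).
Hmgcs1: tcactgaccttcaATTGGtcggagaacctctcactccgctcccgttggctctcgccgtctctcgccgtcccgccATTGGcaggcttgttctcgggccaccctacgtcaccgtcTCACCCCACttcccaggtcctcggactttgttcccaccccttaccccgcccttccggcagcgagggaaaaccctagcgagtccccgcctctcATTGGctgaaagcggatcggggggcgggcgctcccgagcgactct
Mvk: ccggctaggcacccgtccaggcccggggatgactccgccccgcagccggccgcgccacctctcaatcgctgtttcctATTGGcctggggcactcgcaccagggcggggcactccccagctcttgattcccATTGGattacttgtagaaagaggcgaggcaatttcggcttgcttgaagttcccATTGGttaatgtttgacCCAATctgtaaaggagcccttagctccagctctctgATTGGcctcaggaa
Mvd: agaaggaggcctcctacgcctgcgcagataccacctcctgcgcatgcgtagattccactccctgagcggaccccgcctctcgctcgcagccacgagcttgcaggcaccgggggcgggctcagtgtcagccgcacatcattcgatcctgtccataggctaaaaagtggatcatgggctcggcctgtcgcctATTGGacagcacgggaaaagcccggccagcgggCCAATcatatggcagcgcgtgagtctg
Idi1: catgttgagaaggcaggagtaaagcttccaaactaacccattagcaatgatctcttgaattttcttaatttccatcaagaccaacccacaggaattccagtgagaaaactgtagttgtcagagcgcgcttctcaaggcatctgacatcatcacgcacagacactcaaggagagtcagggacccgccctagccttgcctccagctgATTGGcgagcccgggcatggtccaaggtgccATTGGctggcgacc
Tm7sf2: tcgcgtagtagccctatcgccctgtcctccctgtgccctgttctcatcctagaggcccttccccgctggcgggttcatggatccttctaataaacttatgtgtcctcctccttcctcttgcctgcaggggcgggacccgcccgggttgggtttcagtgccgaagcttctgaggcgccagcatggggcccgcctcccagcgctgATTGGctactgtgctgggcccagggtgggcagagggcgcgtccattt

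The next 3 are the paralogues Insig1 and Insig2, which differed in direction on 2 of the 3 DOX arrays, and Abca1, the efflux gene that was higher on all 3. Insig2 had 3 starts in the reference, of which the most upstream is shown, while Insig1 and Abca1 had 1 each. Which start these organoids used was not tested. Insig1 lies at chr5:28071162-28071411 (plus strand), Insig2 at chr1:121332590-121332839 (minus strand) and Abca1 at chr4:53159896-53160145 (minus strand).
Insig1: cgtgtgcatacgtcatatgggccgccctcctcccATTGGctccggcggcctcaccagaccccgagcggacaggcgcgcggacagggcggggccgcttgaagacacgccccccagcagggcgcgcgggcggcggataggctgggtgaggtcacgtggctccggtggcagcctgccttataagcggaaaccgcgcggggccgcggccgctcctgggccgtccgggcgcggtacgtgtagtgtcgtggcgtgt
Insig2: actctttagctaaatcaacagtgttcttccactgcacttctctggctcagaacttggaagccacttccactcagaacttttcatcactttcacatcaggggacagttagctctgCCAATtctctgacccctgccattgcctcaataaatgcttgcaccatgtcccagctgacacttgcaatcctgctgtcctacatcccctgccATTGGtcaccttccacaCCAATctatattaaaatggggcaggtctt
Abca1: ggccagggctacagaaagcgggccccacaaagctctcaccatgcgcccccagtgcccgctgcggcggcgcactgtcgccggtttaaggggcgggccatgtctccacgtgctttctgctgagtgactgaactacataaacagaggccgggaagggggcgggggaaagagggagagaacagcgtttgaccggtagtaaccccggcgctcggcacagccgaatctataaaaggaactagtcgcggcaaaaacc

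Over the whole window of 300 bases, which also holds the 50 bases after the start, CCAAT on either strand was found in 14 of 15 mevalonate and sterol genes and in 4 of 7 genes of regulation, uptake and efflux. Of 15613 measured genes with a window, 38.4% held it, and of all 27025 genes with a window 38.0% did. In Mvk the box occurred at −173, −120, −67 and −14 on the opposite strand, each 53 bases from the next, and at −50 on the same strand. The GC box GGGCGG, on either strand, was in 18 of the 22 windows and in 49.9% of measured genes. The core TCACNCCAC was in the Hmgcs1 window, at −137 to −129, and in 1.16% of measured genes (1.22% of all genes with a window). The LXR element searched, AGGTCA repeated directly after a spacer of 4 bases, was in 0 of the 22 windows and in 1 of the 15613. Only these exact letters were matched. With so few matches among all genes, the search cannot tell whether a window, that of Abca1 included, holds an LXR element with other letters. The core in Hmgcs1 overlapped no CCAAT box. A match describes letters in a reference sequence and says nothing about binding in these organoids.

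The array labelled DOX replicate 2 was unlike the others, and this touches most values that follow. It correlated with the others at 0.816 to 0.865 across genes, where the other 5 correlated at 0.963 to 0.996 with each other. Genes at high control levels read low on it: in the top 10% of control levels the median difference from the control mean was −1.59 on the log2 scale, against −0.06 and −0.12 on DOX replicates 1 and 3. Genes at low control levels read high on it, with a median of 0.84 in the lowest 10%, against −0.02 and 0.09 on DOX replicates 1 and 3. Results are therefore given with all 6 arrays and without that array. Erbb3 itself read 9.78, 9.71 and 9.69 in the controls and 10.36, 9.31 and 9.82 on DOX replicates 1 to 3, so the targeted gene was not lower in the DOX group. Which exons were removed is not stated, so this probe set is no clean check, and directions follow the labels. Krt8, Krt18 and Epcam, which mark luminal epithelium, had mean control levels of 12.52, 12.64 and 11.56. The basal keratins Krt5 and Krt14 had mean control levels of 5.24 and 6.61. As a list, epithelial markers also read lower with DOX: the 6 averaged 9.83 to 9.89 on control arrays and 8.93 to 9.39 on DOX arrays. With 6 arrays 0 of the 6 passed in limma (all genes, 2.26% lower and 0.120% higher), and the median was −0.77. At an unadjusted p under 0.05, 3 were lower and 0 higher (all genes, 10.9% and 3.16%), while Krt5 differed by 0.07. Without DOX replicate 2 the list median was −0.46 (all genes, 0.0095). In that fit Krt8, Krt18 and Krt14 fell by 0.74, 0.64 and 1.06 (limma adjusted p = 4.94e-04, 0.00156 and 3.38e-04). Epcam, Cdh1 and Krt5 differed by −0.28, −0.065 and −0.06 and did not pass (limma adjusted p = 0.0781, 0.719 and 0.854). The part of the epithelial markers in the results on cholesterol genes was not tested. Markers of adipocytes, fibroblasts and endothelium averaged 4.08 to 5.04 per list on control arrays and 4.19 to 5.72 on DOX arrays, and 0 of their 17 measured genes passed in limma with 6 arrays (0 at an unadjusted p under 0.05). The highest mean of each list was that of DOX replicate 2 (5.00, 5.72 and 5.18), while DOX replicates 1 and 3 gave 4.19 to 5.13.

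Genes of cholesterol synthesis read lower with DOX along most of the pathway. With all 6 arrays, 5 of the 28 genes fell at a limma adjusted p under 0.05 and 0 rose, where 2.26% of all genes fell and 0.120% rose. The 5 were Pmvk, Mvd, Fdps, Tm7sf2 and Stard4. At an unadjusted p under 0.05, 17 were lower and 1, Abca1, was higher, where 10.9% and 3.16% of all genes were. The median log2 difference, DOX minus control, over the 28 was −1.08 (all genes, 0.02). All 28 are among the 50% of genes with the highest means, which read lower on DOX replicate 2. Fitted alone, those 9969 genes had a median of −0.33, with 426 lower and 22 higher, and 6 of the 28 were lower. Without DOX replicate 2, 18 fell and 5 rose (all genes, 14.3% and 12.3%), and the median was −0.81 (all genes, 0.0095). All 3 DOX arrays lay below all controls for 20 of the 28 genes and above them for 1, where 20.3% and 11.7% of all genes did so. None of the 5 calls was kept without control replicate 1, 2 or 3, while Pmvk alone was kept without DOX replicate 3. In bulk RNA, fewer cells of a type and less RNA per cell cannot be told apart.

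**Figure D1:**
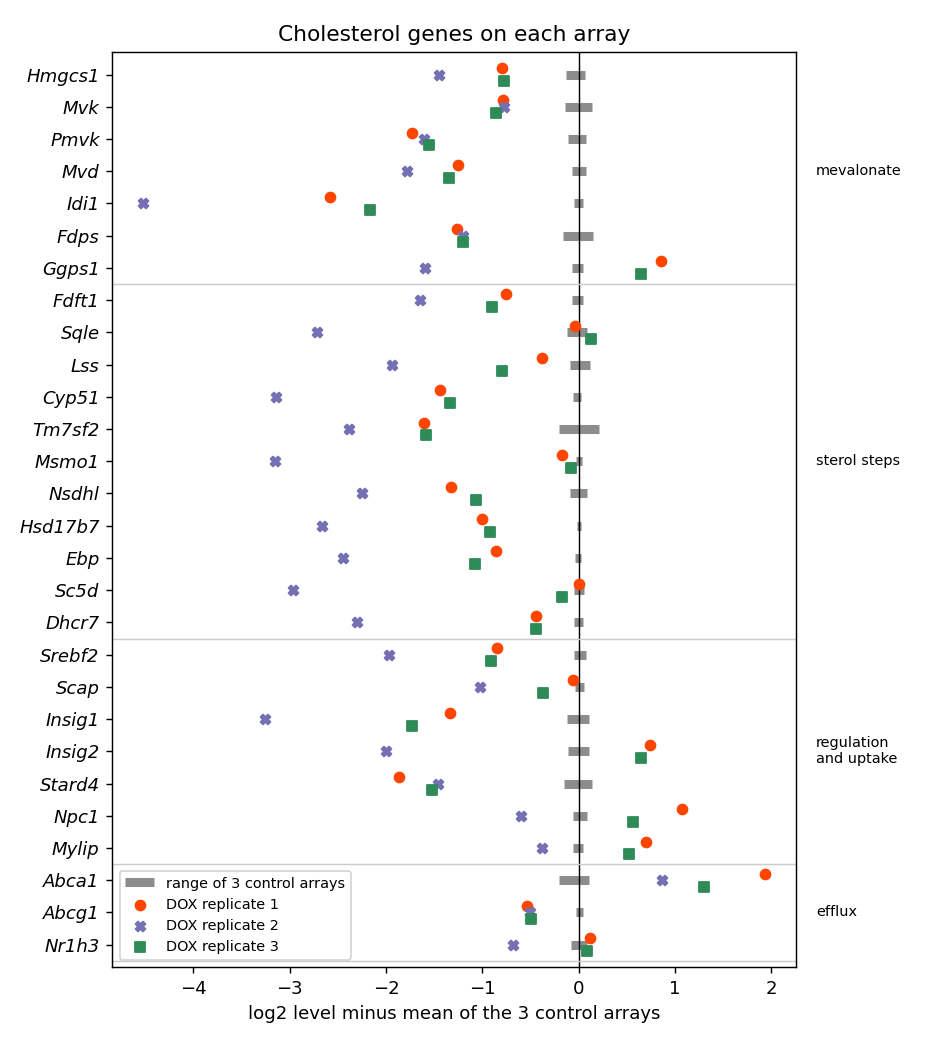
Each row is a gene, in pathway order, and the x axis is its log2 level on each DOX array minus the mean of the 3 control arrays, whose range is the grey bar. DOX replicates 1 and 3 lie close together, and DOX replicate 2 lies far to the left for Idi1 (−4.52), Insig1 (−3.26), Msmo1 (−3.15) and Cyp51 (−3.14), while Abca1 is right of 0 on all 3.

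In the mevalonate steps, 3 of 7 genes fell with 6 arrays and 6 fell without DOX replicate 2 (all genes, 2.26% and 14.3%). The medians were −1.22 and −1.23. Pmvk, the kinase that adds the second phosphate to mevalonate, read 7.90, 7.94 and 7.75 in controls and 6.13, 6.25 and 6.31 on DOX replicates 1 to 3. The groups were far apart and DOX replicate 2 lay between the other DOX arrays. Pmvk fell by 1.63 (SE 0.17, limma adjusted p = 0.0068). Mvd, the decarboxylase that makes isopentenyl pyrophosphate, read 7.78, 7.87 and 7.72 in controls and 6.54, 6.01 and 6.45 with DOX, and fell by 1.46 (SE 0.20, limma adjusted p = 0.019). Fdps, which makes farnesyl pyrophosphate at the branch of sterols and isoprenoids, went from 9.12, 8.94 and 9.26 to 7.85, 7.90 and 7.90. Its 3 DOX values lay close together. Fdps fell by 1.22 (SE 0.17, limma adjusted p = 0.02), and the 5 other arrays gave −1.23.

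Idi1, the isomerase of isopentenyl pyrophosphate, had the largest difference of the 28 genes in both fits. It read 9.84, 9.79 and 9.75 in controls and 7.22, 5.27 and 7.62 on DOX replicates 1 to 3. The difference of −3.09 (SE 0.59) did not pass with 6 arrays (limma adjusted p = 0.0554) and did without DOX replicate 2 (−2.38, SE 0.13, limma adjusted p = 4.33e-07). A second Idi1 probe set read 7.82 to 8.15 in controls and 5.72, 5.66 and 6.26 with DOX, where DOX replicate 2 did not stand apart. Hmgcs1, which forms HMG-CoA, went from 8.73, 8.55 and 8.74 to 7.87, 7.22 and 7.89, and Mvk, mevalonate kinase, from 7.39, 7.54 and 7.25 to 6.61, 6.62 and 6.53. Their differences of −1.01 and −0.81 did not pass with 6 arrays (limma adjusted p = 0.109 and 0.08), and they fell by 0.79 and 0.82 without DOX replicate 2 (limma adjusted p = 5.16e-04 and 5.53e-04).

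Ggps1, which extends farnesyl to geranylgeranyl pyrophosphate and so leads away from sterols, went the other way on 2 DOX arrays. It read 8.42, 8.50 and 8.53 in controls, and 9.34, 6.89 and 9.13 on DOX replicates 1 to 3. The difference was −0.03 (95% confidence interval −1.55 to 1.48) with 6 arrays, and without DOX replicate 2 Ggps1 rose by 0.75 (SE 0.12, limma adjusted p = 7.89e-04). The log2 ratio of Fdps to Ggps1 within an array, a pair chosen after the values were seen, was 0.70, 0.44 and 0.73 in controls and −1.50, 1.02 and −1.22 on the DOX arrays. The group mean of the ratio was lower with DOX in both sets of arrays (differences of −1.19 with 6 arrays and −1.98 without DOX replicate 2), while DOX replicate 2 itself lay above the controls.

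In the sterol steps, 1 of 11 genes fell with 6 arrays and 8 fell without DOX replicate 2 (all genes, 2.26% and 14.3%). The medians were −1.13 and −0.83. All 11 differences were negative with 6 arrays, as were 9614 of the 19937 over all genes. Genes at such high control levels read low on DOX replicate 2, and without that array 10 of the 11 were negative (all genes, 9663). For 9 of the 11, all DOX arrays lay below all controls (all genes, 20.3%). Tm7sf2, a reductase acting after lanosterol demethylation, read 7.61, 8.03 and 7.80 in controls and 6.21, 5.43 and 6.23 with DOX. It fell by 1.86 (SE 0.28, limma adjusted p = 0.0233). Cyp51, the lanosterol demethylase, read 8.50, 8.42 and 8.50 against 7.04, 5.34 and 7.14. From the control mean, DOX replicate 2 was at −3.14 and DOX replicates 1 and 3 at −1.44 and −1.33. Cyp51 differed by −1.97 with 6 arrays (limma adjusted p = 0.122) and fell by 1.39 without DOX replicate 2 (SE 0.11, limma adjusted p = 5.94e-06).

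Nsdhl, which together with Msmo1 removes methyl groups from the sterol ring, read 8.89, 8.98 and 9.06 in controls and 7.65, 6.72 and 7.90 with DOX. Hsd17b7, the ketoreductase of the same complex, had controls at 8.72, 8.71 and 8.75 and DOX values of 7.72, 6.06 and 7.81. Ebp, the sterol isomerase, went from 9.06, 9.07 and 9.01 to 8.19, 6.60 and 7.97. For all 3 genes the DOX arrays lay below the controls, with 6-array differences of −1.55, −1.53 and −1.46 that did not pass (limma adjusted p = 0.0754, 0.214 and 0.183). Without DOX replicate 2 they fell by 1.20, 0.96 and 0.97 (limma adjusted p = 3.92e-05, 8.34e-05 and 1.27e-04). Fdft1, squalene synthase, went from 9.36, 9.44 and 9.47 to 8.67, 7.78 and 8.52. It differed by −1.10 with 6 arrays (limma adjusted p = 0.122) and fell by 0.83 without DOX replicate 2 (limma adjusted p = 3.39e-04), and its second probe set differed by −1.11 and −0.69. Lss, which closes the ring to lanosterol, read 8.31, 8.16 and 8.09 against 7.81, 6.24 and 7.39, and Dhcr7, the last reductase, 9.35, 9.26 and 9.30 against 8.86, 7.00 and 8.86. Neither passed with 6 arrays (−1.04 and −1.06, limma adjusted p = 0.321 and 0.41), and they fell by 0.59 and 0.44 without DOX replicate 2 (limma adjusted p = 0.0106 and 0.0114).

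For Sqle, Msmo1 and Sc5d, DOX replicates 1 and 3 read near the controls. Sqle, the squalene epoxidase, a rate-limiting step of the sterol branch, read 9.71, 9.56 and 9.76 in controls and 9.64, 6.96 and 9.81 on DOX replicates 1 to 3. Msmo1 read 11.06, 11.12 and 11.09 against 10.92, 7.94 and 11.01. Sc5d, the lathosterol desaturase, read 9.30, 9.40 and 9.34 against 9.35, 6.38 and 9.17. Their 6-array differences of −0.87, −1.13 and −1.04 did not pass (limma adjusted p = 0.544, 0.496 and 0.503) and rested on DOX replicate 2. Without it the differences were 0.05, −0.12 and −0.09, with 95% confidence intervals of −0.22 to 0.31, −0.36 to 0.12 and −0.34 to 0.17. Whether these 3 genes changed less than the rest of the pathway was not tested.

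**Figure D2:**
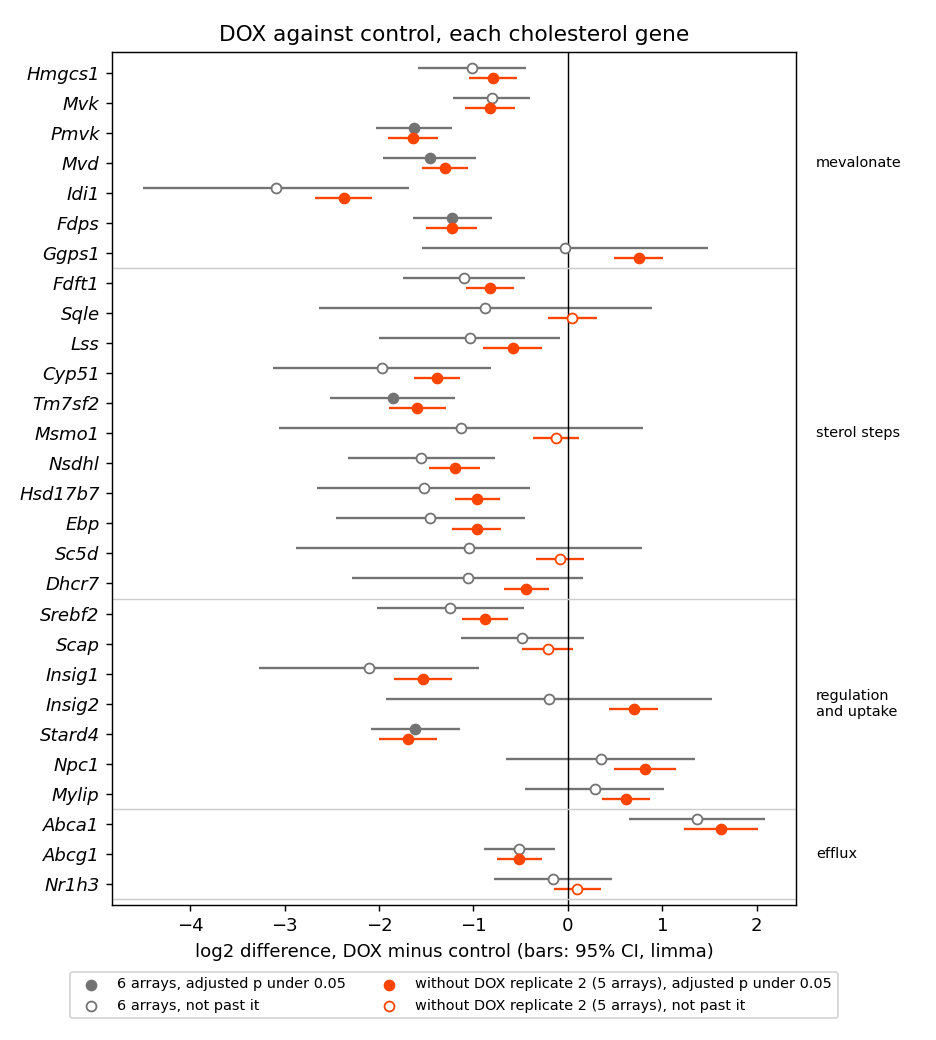
Points are log2 differences, DOX minus control, with 95% confidence intervals from limma, in grey for 6 arrays and red-orange without DOX replicate 2; filled points have an adjusted p under 0.05. Grey intervals are wide where DOX replicate 2 lay far from the other DOX arrays, and 5 grey and 23 red-orange points are filled.

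Among regulators and uptake genes, 1 of 7 fell with 6 arrays (all genes, 2.26%). Without DOX replicate 2, 3 fell and 3 rose (all genes, 14.3% and 12.3%). Stard4, a soluble carrier that moves sterol between membranes, read 7.88, 7.60 and 7.76 in controls and 5.88, 6.29 and 6.22 with DOX. The groups did not overlap, and it fell by 1.62 (SE 0.20, limma adjusted p = 0.0113). Srebf2 read 9.37, 9.34 and 9.47 against 8.55, 7.42 and 8.48, a difference of −1.25 with 6 arrays (limma adjusted p = 0.148) and a fall of 0.88 without DOX replicate 2 (limma adjusted p = 1.78e-04). Scap, which escorts SREBP to the Golgi, read 8.65, 8.74 and 8.67 against 8.62, 7.67 and 8.32 and did not pass in either fit (limma adjusted p = 0.448 and 0.239).

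The paralogues Insig1 and Insig2, which both hold the SCAP-SREBP complex in the endoplasmic reticulum, differed in direction on DOX replicates 1 and 3. Insig1, itself a target of SREBP, read 9.55, 9.79 and 9.68 in controls and 8.34, 6.42 and 7.94 on DOX replicates 1 to 3. Insig2 read 8.96, 8.85 and 9.06 in controls and 9.70, 6.95 and 9.60 with DOX. Insig1 was below the controls on every DOX array, while Insig2 was above them on 2 and below on DOX replicate 2. Without that array Insig1 fell by 1.53 and Insig2 rose by 0.70 (limma adjusted p = 1.63e-05 and 0.00118); with 6 arrays the differences were −2.11 and −0.20 (limma adjusted p = 0.102 and 0.88). The log2 ratio of Insig1 to Insig2 within an array, chosen after the values were seen, was 0.60, 0.94 and 0.63 in controls and −1.36, −0.53 and −1.66 on the DOX arrays. The ratio was lower on all 3 DOX arrays, DOX replicate 2 included, and shows only that the paralogues changed unequally.

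Npc1, which exports cholesterol from lysosomes, and Mylip, a ubiquitin ligase that limits uptake of lipoprotein cholesterol, were higher on DOX replicates 1 and 3. Npc1 read 7.92, 7.95 and 8.06 in controls and 9.05, 7.38 and 8.54 with DOX. Mylip read 9.29, 9.19 and 9.26 against 9.95, 8.87 and 9.78. The 6-array differences of 0.35 and 0.28 did not pass (limma adjusted p = 0.656 and 0.622), and without DOX replicate 2 the genes rose by 0.82 and 0.62 (limma adjusted p = 0.00209 and 0.0023).

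In the efflux group, Abca1, the transporter that loads cholesterol onto apolipoproteins, was higher on every DOX array, and Abcg1, which exports to high-density lipoprotein, was lower on each. Abca1 read 8.24, 7.93 and 8.24 in controls and 10.07, 9.00 and 9.44 on DOX replicates 1 to 3, the only one of the 28 genes with every DOX array above every control. Its difference of 1.37 (SE 0.30) did not pass with 6 arrays (limma adjusted p = 0.0876) and it rose by 1.62 (SE 0.18, limma adjusted p = 6.58e-05) without DOX replicate 2. Abcg1 read 6.29, 6.28 and 6.36 in controls and 5.77, 5.81 and 5.82 with DOX, among which DOX replicate 2 did not stand apart. The difference of −0.51 did not pass with 6 arrays (limma adjusted p = 0.216), and Abcg1 fell by 0.52 without that array (limma adjusted p = 0.00491). Nr1h3, which encodes LXR alpha, read 6.51, 6.35 and 6.41 against 6.54, 5.74 and 6.51 and did not pass in either fit (limma adjusted p = 0.738 and 0.558). Beside these rises, the macrophage and leukocyte markers averaged 5.47 to 5.51 on control arrays and 5.49 to 5.68 on DOX arrays. None of those 7 markers passed with 6 arrays (all genes, 2.26% lower and 0.120% higher). At an unadjusted p under 0.05, 1 was lower and 1 higher (all genes, 10.9% and 3.16%). Without DOX replicate 2, the lysosomal marker Cd68 rose by 1.01, Ptprc rose by 0.38 and Cd14 fell by 1.06 (all genes, 14.3% lower and 12.3% higher). Csf1r, Itgam, Mrc1 and Lyz2 differed by −0.08, 0.13, 0.13 and 0.15 in that fit and did not pass. The part of macrophages and leukocytes in the values of Abca1 and Npc1 was not tested.

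**Figure D3:**
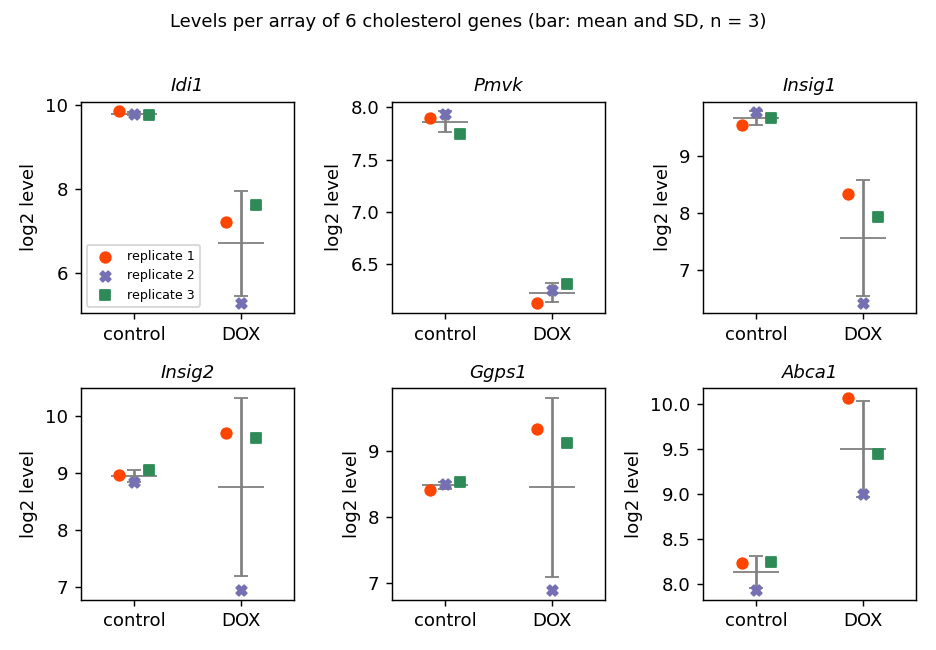
Log2 level of 6 genes on each array, with points for replicates 1 to 3 and bars for the mean and SD (n = 3 arrays a group); y axes differ between panels. Idi1, Pmvk, Insig1 and Abca1 separate control from DOX on all arrays. Insig2 and Ggps1 are above the controls on DOX replicates 1 and 3 and below them on DOX replicate 2.

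Because high genes read low on DOX replicate 2, each gene was also set against all genes in the same 10% step of control levels on the same array. On DOX replicates 1, 2 and 3 the 28 genes lay a median of −0.74, −0.56 and −0.74 from the median of their step. Of the 28, 17 were below their step on all 3 DOX arrays, as were 27.2% of all genes, and 3 were above it on all 3, as were 26.9%. The 17 comprised 5 mevalonate genes, 8 sterol genes, Srebf2, Insig1, Stard4 and Abcg1, and the 3 were Npc1, Mylip and Abca1. Beyond its step on DOX replicate 2, Idi1 was at −2.93, Cyp51 at −1.78, Insig1 at −1.67 and Msmo1 at −1.56. Fdps and Scap lay 0.39 and 0.34 above their step on that array although they were below the controls there, and Hmgcs1, Mvk and Fdft1 were close to it (−0.09, −0.03 and −0.05).

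**Figure D4:**
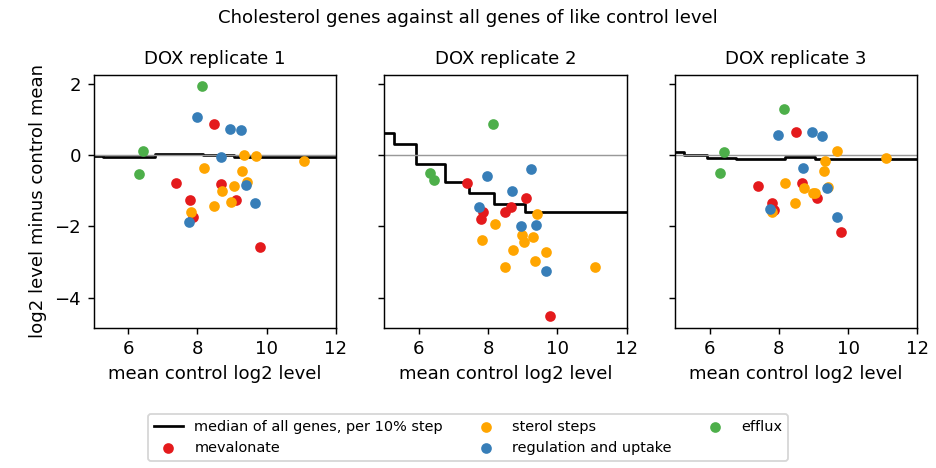
Each panel is a DOX array; points are the 28 genes by mean control log2 level (x axis) and log2 level minus control mean (y axis), and the black line is the median of all genes in each 10% step of control levels. The line is near 0 on DOX replicates 1 and 3 and falls to −1.59 on DOX replicate 2, where Idi1 lies at −4.52 and Abca1 at 0.87.

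Other genes around the pathway were read from 5 further lists. Of all genes, 2.26% fell and 0.120% rose with 6 arrays, and 14.3% fell and 12.3% rose without DOX replicate 2. Of 10 measured genes of other synthesis steps and electron supply, 1 fell with 6 arrays and 8 fell without DOX replicate 2, with medians of −0.82 and −0.57. Acss2, which makes acetyl-CoA from acetate, fell by 1.23 (limma adjusted p = 0.0243), and Acat1, a mitochondrial acetyltransferase, differed by −1.14 (limma adjusted p = 0.0956). Of 15 genes of uptake, transport and esterification, 1 fell with 6 arrays, and without DOX replicate 2, 6 fell and 3 rose. Tmem97, a sterol-responsive membrane protein, fell by 1.77 (limma adjusted p = 0.0102), and Lipa, the lysosomal acid lipase that frees cholesterol from its esters, differed by −2.11 (limma adjusted p = 0.173).

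The remaining 3 lists had 0 calls with 6 arrays in limma, and each had 1 gene lower and 0 higher at an unadjusted p under 0.05, where 10.9% of all genes were lower and 3.16% higher. Among 14 genes that use isoprenoids for prenylation, dolichol or ubiquinone, the median was −0.49 with 6 arrays and 0.07 without DOX replicate 2. In the fit without that array 1 fell and 3 rose (all genes, 14.3% and 12.3%). Fntb, a farnesyltransferase subunit, and Dolk, dolichol kinase, differed by −1.39 and −0.57 with 6 arrays (limma adjusted p = 0.268 and 0.417). Among 8 genes of SREBP processing and sterol-sensing degradation, Srebf1, which encodes the paralogue SREBP1, differed by −2.26 (limma adjusted p = 0.0509) and fell by 1.77 without DOX replicate 2 (limma adjusted p = 7.74e-07). Ube2g2, a ubiquitin-conjugating enzyme of the endoplasmic reticulum, differed by 0.42 (limma adjusted p = 0.414) and rose by 0.54 without that array (limma adjusted p = 0.0116). Among 14 LXR partners, other LXR targets and oxysterol enzymes, the medians were 0.18 and 0.0041. Rxra, the partner of LXR, differed by −0.65 (limma adjusted p = 0.201), and Smpdl3a, an LXR target in other cells, by 0.77 (limma adjusted p = 0.405). Without DOX replicate 2, 2 of the 14 fell and 1 rose (all genes, 14.3% and 12.3%). Rxra fell by 0.53 and Smpdl3a rose by 1.18 (limma adjusted p = 0.00758 and 2.17e-05). Lpcat3, of the same list, fell by 0.51 in that fit (limma adjusted p = 0.00694).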

How the data were processed

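The values of 6 arrays were used as the authors deposited them, as log2 expression summaries per probe set. RMA and affy are the tools listed per the submitters' processing notes; versions, annotation and build are not given in the sources used here. No detection calls were used, so a difference at the low end of the scale may be understated, and probe sets of different genes differ in response, so the level of a gene is read against its own controls.

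Of 34760 probe sets, 21640 had 1 gene symbol in GEO's platform annotation; the others, 37.7%, were left out. The probe set with the highest mean stood for a gene. All 19937 genes were fitted with limma 3.58.1 in R 4.3.3 (lmFit, eBayes, two-sided), with Benjamini-Hochberg adjustment over all genes and a threshold of 0.05, and the fit was tested on simulated data. The simulated noise was independent, with the same spread on every array. It therefore does not test the fit where an array stands apart, as DOX replicate 2 does. All 30 listed genes were to be named, plus, from each further list, genes past the threshold and the 2 with the smallest p. The members, lists and alternatives were chosen with earlier results of these data known. Each printed promoter and motif was chosen after the values were seen. Motifs were searched in Python 3.11.15.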

Additional observations from a re-analysis of the deposited data

How the results depend on the processing

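Of the 5 genes that fell with 6 arrays, Pmvk kept its call in 9 of 13 alternatives, Mvd and Stard4 in 8, and Fdps and Tm7sf2 in 5. Leaving out 1 array gave 0 to 18 of the 28 genes lower and 0 to 5 higher, with 61 to 2855 of all genes lower and 2 to 2454 higher; the upper ends are those without DOX replicate 2. With array weights, which gave that array 0.033, 19 of the 28 were lower and 5 higher (all genes, 3752 and 3642). A second quantile normalization gave 1 of the 28 higher (Abca1) and 7 lower, with 185 higher and 626 lower of all genes, against 24 and 450. Centring each array on its median, which moved the median over all genes from 0.02 to −0.18, left 7 of all genes higher, and 4 of the 28 were lower. The replicate block gave 0 of the 28 lower, and 159 lower and 3 higher of all genes. Whether arrays of the same number form pairs is not settled here. Deviations of same-numbered arrays correlated at 0.12, 0.19 and 0.09. Control replicates 1 and 2 correlated best with the DOX array of their number, the first by little (0.117, against 0.1156 with DOX replicate 3). Control replicate 3 correlated at 0.0877 with DOX replicate 1 and at 0.0852 with DOX replicate 3. Directions changed for 5 genes and the efflux median. Leaving out 1 array gave differences of −0.48 to 0.75 for Ggps1, −1.38 to 0.047 for Sqle, −0.68 to 0.70 for Insig2, −0.30 to 0.10 for Nr1h3 and for the efflux median, and −0.017 (without DOX replicate 1) to 0.82 for Npc1. The upper ends are those without DOX replicate 2. With array weights Ggps1 was at 0.67, Sqle at 0.063, Insig2 at 0.63, and Nr1h3 and the efflux median at 0.071. Ggps1 was at 0.13 after the second quantile normalization. Idi1 passed as lower when its 2 probe sets were averaged and when the 50% of genes with the lowest means were left out. The cause of these changes was not tested. The number of arrays limits every value, and the fit without DOX replicate 2 rests on 2 DOX arrays.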
